A study of Mus musculus with 6 samples.

Results

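The genes for FGF4, its receptors and the feedback inhibitors and ETS factors of the ERK pathway were followed in mouse embryonic stem cells with and without the C-terminal part of Dido3. All probe sets whose platform gene symbol was Fgf4, Fgfr1, Fgfr2, Dusp4, Dusp6, Dusp9, Spry2, Spry4, Etv4 or Etv5 were taken, which gave 26 of the 45037 probe sets tested, for 10 of 18193 genes. The cells were wild type (3 arrays) or carried the C-terminal truncation labelled Dido3deltaCT (3 arrays, called truncated below). Both groups were grown side by side in medium with leukemia inhibitory factor (LIF), a cytokine that keeps these cells self-renewing. Total RNA was read on Affymetrix Mouse Genome 430 2.0 arrays, on which each probe set reports a transcript as a log2 value. Each group's arrays are biological replicates per the labels, which give no number of cell lines, so the p-values measure only the spread between these samples, which may be technical.

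FGF4 is a growth factor that mouse embryonic stem cells secrete and that acts on their own FGF receptors. The receptors signal through RAS, RAF and MEK to ERK, and ERK activity is known to prime these cells for leaving the naive state. ERK also switches on its own brakes, the dual-specificity phosphatases (DUSP) that dephosphorylate ERK and the sprouty proteins that act between the receptor and RAF, together with the ETS transcription factors Etv4 and Etv5. The messenger RNA of these brakes and factors is widely used as a readout of ERK activity.

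The stretch before the transcription start was read for 5 of the 10 genes, in 6 windows from RefSeq on GRCm38.p6. The 250 bases upstream of 3 of them are shown, 5′ to 3′ in the direction of the gene. Fgf4 is shown because its probe sets changed, and Dusp6 and Etv5 because they are the feedback phosphatase and the ETS factor read for ERK activity. Capitals mark matches on either strand to 3 motifs. These were the GC box GGGCGG, the box CCAAT and the TATA-like letters TATATA. On the opposite strand the second of these is read as ATTGG. The first lies on chr7:144861136-144861385 (+ strand), the second on chr10:99262981-99263230 (+ strand) and the third, the outer of both Etv5 windows, on chr16:22439571-22439820 (− strand).
Fgf4: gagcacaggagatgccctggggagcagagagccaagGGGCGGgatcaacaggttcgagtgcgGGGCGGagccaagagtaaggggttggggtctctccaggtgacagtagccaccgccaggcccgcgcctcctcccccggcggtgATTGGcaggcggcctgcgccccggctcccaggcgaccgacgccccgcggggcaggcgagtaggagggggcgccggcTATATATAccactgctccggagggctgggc
Dusp6: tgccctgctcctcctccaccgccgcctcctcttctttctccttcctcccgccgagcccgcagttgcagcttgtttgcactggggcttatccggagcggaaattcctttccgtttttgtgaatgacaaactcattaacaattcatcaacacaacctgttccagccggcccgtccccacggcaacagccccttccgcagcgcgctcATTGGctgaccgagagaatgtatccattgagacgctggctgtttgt
Etv5: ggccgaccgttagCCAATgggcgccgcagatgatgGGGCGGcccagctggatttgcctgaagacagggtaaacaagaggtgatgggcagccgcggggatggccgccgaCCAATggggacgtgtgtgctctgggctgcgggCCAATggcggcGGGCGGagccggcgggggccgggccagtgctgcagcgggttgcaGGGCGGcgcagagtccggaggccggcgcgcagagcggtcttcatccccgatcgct

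The Fgf4 window held 2 GC boxes, 1 CCAAT box and a TATA-like run made of 2 overlapping TATATA matches from -30 to -23 relative to the transcription start. Of 32851 windows of the same length over all genes, 32.7% held a GC box, 33.8% a CCAAT box and 5.25% TATATA. The Dusp6 window held 1 CCAAT box, and this Etv5 window held 3 GC boxes and 3 CCAAT boxes. The letters CCGGAA, a core read by ETS factors, were in none of the 6 windows read, those of Fgf4, Fgfr2, Dusp6, Spry2 and Etv5, and in 12% of all windows. No window of Fgfr1, Dusp4, Dusp9, Spry4 or Etv4 was read, so this says nothing of those genes. A match or its absence is a description of these letters in this stretch.

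Of the 26 probe sets, 4 rose and 2 fell in the truncated cells (limma, adjusted p under 0.05 over all probe sets), and these 6 belonged to 2 genes, Fgf4 and Dusp9. Over the whole array 2.80% of probe sets passed, 1.68% upward and 1.12% downward. The other 20 probe sets, 17 of them above 4.82, the median over all probe sets and arrays, did not pass. Of the 26, 23 were above this median, where 4.76% of probe sets passed. The groups did not overlap in 9 of the 26, against 18.6% of all probe sets. The median difference, truncated minus wild type, was 0.00 over the 26 and 0.01 over the whole array, and the median size of a difference was 0.18 and 0.12 log2 units. Read with 1 probe set a gene, the brightest over all arrays, 2 of the 10 genes passed, Dusp9 upward and Fgf4 downward, where 4.67% of all genes did. Fgf4 was read there by 1420086_x_at, while 1449729_at of the same gene rose by 5.94, so this call does not settle its direction. Without wild-type replicate 2, or without truncated replicate 1, 2 or 3, the count was 1 of 26, the rise of 1 Fgf4 probe set. Calls over the whole array dropped in these fits too, from 2.80% to 0.684%, 0.331%, 1.59% and 0.455% of probe sets. The differences themselves moved little there, from −1.59 to −1.43 for 1420085_at of Fgf4 and from 1.47 to 1.66 for 1454737_at of Dusp9. The count was also 1 in the 4 arrays rich in fibroblast transcripts, described below, where 2.53% of all probe sets passed.

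**Figure D1:**
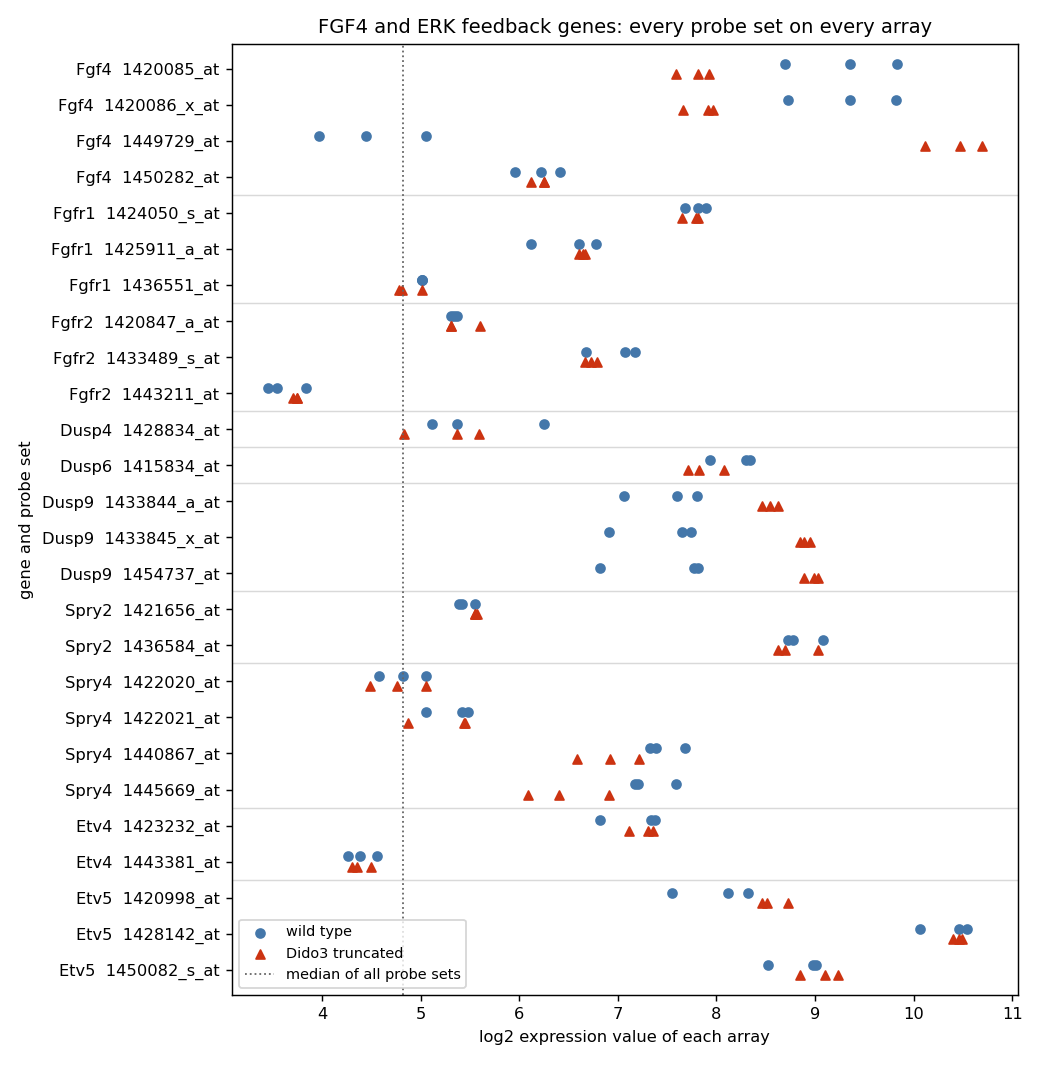
Log2 expression value (x axis) of the 26 probe sets (y axis) on each wild-type (circles) and truncated (triangles) array, with the median of all probe sets as a dotted line. The groups lie apart for 3 Fgf4 probe sets and for all 3 of Dusp9, and overlap for every probe set of Fgfr1, Fgfr2, Dusp4, Dusp6, Spry2 and Etv4.

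Several measures set the arrays apart. The means of 20 measured fibroblast markers, 19 of them above the median of all probe sets and 0 of them called, were 8.65, 8.47 and 5.54 on wild-type replicates 1, 2 and 3 and 8.18, 6.74 and 8.15 on the truncated ones. Wild-type replicate 3 and truncated replicate 2, the poorest in fibroblast transcripts, were also those whose poly-A spike-in controls were bright (means of 12.1 and 12.5, against 6.12 to 7.85). All 10 stem cell markers were above the median and 0 were called (limma), with list means of 10.89 to 11.07 over the 6 arrays. Single markers differed by value in both directions without overlap, Nanog by 0.48, Pou5f1 by 0.28 and Tdgf1 by −0.46 (limma adjusted p = 0.0583, 0.125 and 0.183). So did Esrrb, Zfp42, Dppa5a and Dppa4, by 0.29, 0.20, 0.17 and −0.28, while the groups overlapped for Sox2, Utf1 and Tcl1. Over all genes the groups did not overlap for 22.4%. Nanog passed under 5 of 16 alternatives, over which its adjusted p ran from 0.018 to 0.202. Of 7 markers of primitive endoderm 2 were above the median, Dab2 and Pdgfra (the latter also on the fibroblast list), and 0 were called; Gata4, Gata6, Sox7, Sox17 and Foxa2 lay at 3.50 to 4.76. Of 6 trophoblast markers 1 was called, Gata3, which rose, and list means ran from 5.41 to 5.70. Others of this list went both ways by value. Tfap2c differed by −1.07 and Hand1 by 0.29 without overlap (limma adjusted p = 0.0927 and 0.336), and Eomes by −0.65 with overlap (0.22). Of 5 probe sets of the targeted gene Dido1, 2 fell (1437647_at by 1.47 and 1456405_at by 1.50; limma adjusted p = 0.00106 and 0.013) and 3 did not pass. Of those 3, 1437182_at was higher by value without overlap, with a truncated mean of 7.82 against 7.14 (limma adjusted p = 0.0721). Which of these lie in the removed part was not analysed here. Fewer cells of a type and less RNA per cell cannot be told apart in these bulk samples.

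The groups also differed in sex-linked RNA. The Y-linked genes Eif2s3y, Uba1y and Uty fell from 8.58 to 3.68, from 6.63 to 3.54 and from 5.96 to 4.67 (limma adjusted p = 4.76e-05, 0.0039 and 0.0123). The Y-linked Kdm5d lay below the median of all probe sets in both groups, at 3.29 and 3.20, and did not pass (adjusted p = 0.668). Xist, the X-linked RNA that silences an X chromosome, rose from 8.74 to 9.31 (limma adjusted p = 0.0483). Of 617 X-linked genes 121 rose (19.6%) and 3 fell (0.486%), against 367 rises and 353 falls among 17403 autosomal genes. The truncation and this difference cannot be told apart by this design.

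Fgf4, the ligand, was read by 4 probe sets that disagreed. On 1420085_at the wild-type arrays were at 8.70, 9.35 and 9.83 and the truncated arrays at 7.81, 7.59 and 7.92. Every truncated array lay below every wild-type array, and the wild-type arrays spread more widely than the truncated ones (9.29 ± 0.57 against 7.77 ± 0.17, SD, n = 3 each). The difference was −1.52 (SE 0.27), or 2.87-fold lower with a 95% interval of 1.84 to 4.47, and passed (limma adjusted p = 0.0384). The probe set 1420086_x_at, whose suffix marks probes that can bind other transcripts, was at 8.72, 9.36 and 9.83 in wild-type and 7.91, 7.66 and 7.96 in truncated cells. Its arrays took the same order as on 1420085_at, and it fell by 1.46 (limma adjusted p = 0.0404).

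The probe set 1449729_at went the other way. The wild-type arrays were at 3.96, 4.44 and 5.05, around the median of all probe sets, and the truncated arrays at 10.69, 10.11 and 10.47. The highest wild-type and the lowest truncated array were 5.06 log2 units apart. The difference was 5.94 (SE 0.28; limma adjusted p = 0.00055). Because the wild-type signal lay around the array median, its size depends on the floor of the array, and no fold is given. The rise passed under all 16 alternatives, with differences from 5.68 to 6.38.

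The probe set 1450282_at did not separate the groups, at 6.22, 5.95 and 6.41 in wild-type and 6.25, 6.12 and 6.25 in truncated cells. The difference was 0.01 with a 95% interval of −0.30 to 0.32 (limma adjusted p = 0.984). In the platform annotation this probe set was drawn from the RefSeq transcript NM_010202, while the other 3 were all drawn from one GenBank sequence, BB709552. The opposite calls were thus made by probe sets of the same source sequence. Which of the probe sets measured Fgf4 transcripts was not tested.

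**Figure D2:**
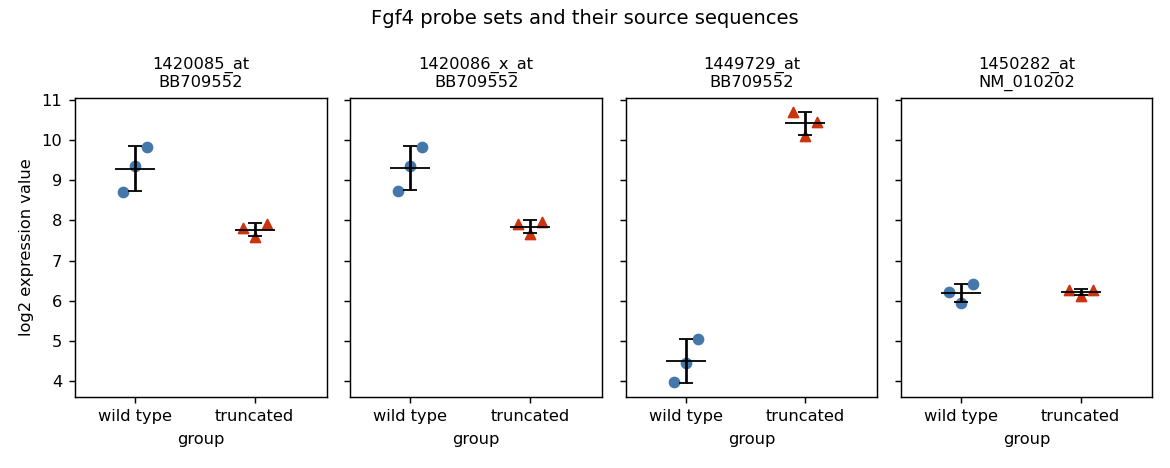
Log2 expression value (y axis) of the 4 Fgf4 probe sets in wild-type and truncated cells (x axis), with 1 point per array, a line at the group mean and bars of ± SD (n = 3 each). The left pair falls by 1.52 and 1.46, 1449729_at rises by 5.94 and 1450282_at differs by 0.01.

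Opposite calls within a gene were uncommon on these arrays. Of 131 genes with at least 2 probe sets past the threshold, 9 had calls in opposite directions. Among 44 source sequences with at least 2 probe sets of one gene past the threshold, 2 did, that of Fgf4 included.

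The fall of 1420085_at was −1.16 in the 4 arrays rich in fibroblast transcripts, whose spike-in controls were dim, and −2.24 between wild-type replicate 3 and truncated replicate 2. Within the wild type, Fgf4 was highest on replicate 3, where fibroblast signal was lowest, and lowest on replicate 1, where it was highest. Among truncated arrays the value was lowest on replicate 2, the array poorest in fibroblast transcripts there. In the 4 arrays alone neither 1420085_at nor 1420086_x_at passed (limma adjusted p = 0.0873 and 0.091), and with the fibroblast mean as a covariate both did. The rise of 1449729_at was 6.38 in the 4 arrays and 5.06 in the pair. The genes for Oct4 and Sox2, factors known to drive Fgf4, were at 11.15 ± 0.06 and 11.44 ± 0.04 for Pou5f1 and at 11.51 ± 0.17 and 11.45 ± 0.11 for Sox2 (wild type and truncated, SD, n = 3 each), and neither passed (limma adjusted p = 0.125 and 0.877).

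The probe sets of other genes with the most similar pattern were found by the Euclidean distance over the 6 arrays, each probe set centred on its own mean, among 34919 probe sets. Nearest to 1449729_at were 1453331_at of the X-linked clone gene 1700013H16Rik (distance 0.67), 1456270_s_at of Pramel6 (0.89) and 1439810_s_at of Pramel7 (1.48), against a median distance of 7.33. Their wild-type means of 2.84, 4.34 and 4.47 were also low, and their truncated means were 9.05, 10.82 and 9.54. Nearest to 1420085_at were probe sets of Mapk8 (0.27), Ano9 (0.33) and Nufip2 (0.35), against a median of 2.08. The same 3 were nearest to 1420086_x_at. These resemblances are a description over 6 arrays that share their groups.

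The receptor genes did not separate the groups. Fgfr1, the main FGF receptor of these cells, was read by 3 probe sets with differences from −0.14 to 0.14, and 0 of them passed (limma; 0 also at an unadjusted p under 0.05). The brightest, 1424050_s_at, was at 7.89, 7.68 and 7.81 in wild-type and 7.79, 7.81 and 7.65 in truncated cells. The groups overlapped, and the 95% interval of the difference was −0.27 to 0.18. On 1425911_a_at wild-type replicate 3 stood below the other arrays at 6.11, against 6.60 to 6.78.

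Fgfr2, which is known for its role in primitive endoderm, differed by −0.25 to 0.12 over 3 probe sets, and 0 passed (limma; 0 also at an unadjusted p under 0.05). On 1433489_s_at the wild-type arrays were at 6.68, 7.07 and 7.18 and the truncated arrays at 6.73, 6.79 and 6.66. Wild-type replicate 1 lay among the truncated arrays, and the 95% interval of the difference was −0.58 to 0.09. The probe set 1443211_at lay below the median of all probe sets on every array, at 3.45 to 3.84.

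Among the phosphatases, Dusp9 rose with all 3 of its probe sets. Dusp9 encodes a phosphatase that dephosphorylates ERK, and the gene lies on the X chromosome. On 1454737_at the wild-type arrays were at 6.82, 7.77 and 7.81 and the truncated arrays at 8.99, 9.03 and 8.89. All truncated arrays were higher and close together, while wild-type replicate 1 stood well below the other wild-type arrays. The difference was 1.50 (SE 0.26), or 2.83-fold with a 95% interval of 1.85 to 4.34 (limma adjusted p = 0.0354).

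On 1433844_a_at Dusp9 was at 7.06, 7.80 and 7.60 in wild-type and 8.62, 8.46 and 8.54 in truncated cells, a rise of 1.05 (limma adjusted p = 0.038). On 1433845_x_at it was at 6.91, 7.74 and 7.65 against 8.95, 8.89 and 8.84, a rise of 1.46 (limma adjusted p = 0.0214). The groups lay apart in each case. All 3 probe sets were drawn from the same source sequence, AV295798, so they are not independent readings of the gene.

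The rise of 1454737_at was 1.65 in the 4 arrays rich in fibroblast transcripts and 1.22 in the other pair. Neither 1454737_at nor the other Dusp9 probe sets passed in the 4 arrays alone (limma adjusted p = 0.0716 to 0.108), where the differences were 1.15 to 1.65. Of 374 X-linked genes above the median of all probe sets, the median difference was 0.47, against −0.02 for 11312 autosomal genes. Each gene was read here by its brightest probe set, for Dusp9 1454737_at, whose difference of 1.50 was the largest of its 3. The difference was at least that large in 17 of the 374, or 4.55%, Dusp9 included. The Dusp9 probe sets that rose by 1.05 and 1.46 were not placed in this way. The part that X-linkage plays in the rise of Dusp9 was not tested.

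**Figure D3:**
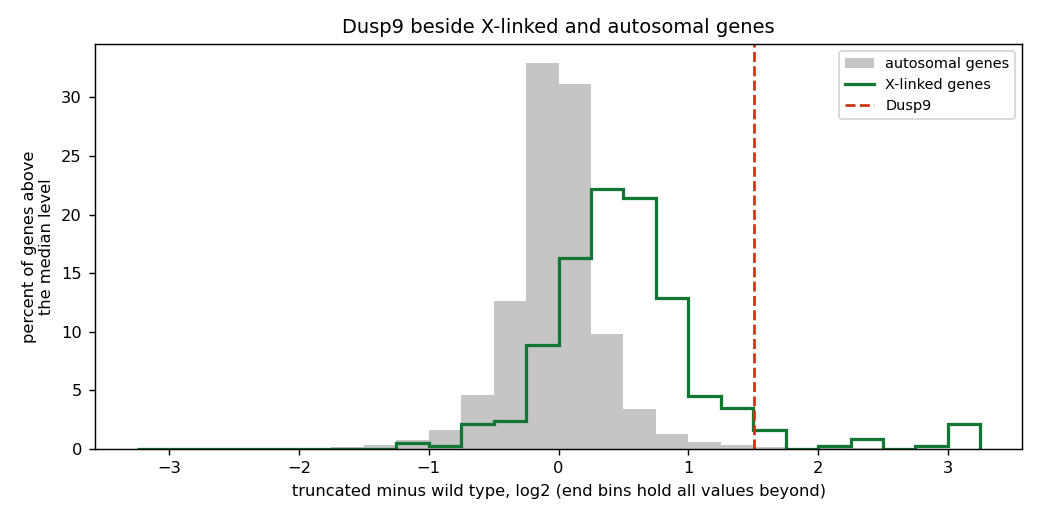
Percent of genes above the median level (y axis) by difference between truncated and wild-type cells in log2 units (x axis), for 374 X-linked genes (green outline) and 11312 autosomal genes (grey), with Dusp9 as a dashed line at 1.50. The X-linked genes are shifted to the right of the autosomal ones. Dusp9, placed by 1454737_at, its probe set with the largest difference, lies in their upper tail.

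The probe sets most like 1433844_a_at belonged to the X-linked genes Txlng (distance 0.19), Fgd1 (0.22) and Tab3 (0.25), against a median distance of 1.44. For 1433845_x_at the nearest were Vstm5 (0.24), Ak7 (0.33) and Jam2 (0.38), and for 1454737_at Vstm5 (0.32), Mapt (0.42) and Pctp (0.43); these 5 genes are autosomal.

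Dusp6, a phosphatase specific for ERK and a common readout of FGF signalling, was at 8.34, 8.30 and 7.93 in wild-type and 7.83, 8.08 and 7.71 in truncated cells (1415834_at). The groups overlapped through wild-type replicate 3 and truncated replicate 2. The difference of −0.32 did not pass (95% interval −0.67 to 0.03, limma adjusted p = 0.381). It was −0.55 among the 4 arrays rich in fibroblast transcripts and 0.14 between the remaining 2.

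Dusp4, a nuclear phosphatase of ERK and JNK, was at 5.37, 6.25 and 5.11 in wild-type and 5.59, 5.37 and 4.83 in truncated cells (1428834_at). Its groups overlapped widely, and the interval of −1.08 to 0.45 around the difference of −0.31 was the widest among the probe sets that did not pass (limma adjusted p = 0.753).

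The sprouty genes did not pass. Spry2 was read at 8.72, 8.77 and 9.08 in wild-type and 8.63, 9.03 and 8.69 in truncated cells on its brighter probe set, 1436584_at. In each group the array poor in fibroblast transcripts had the highest value. The difference was −0.08 with a 95% interval of −0.43 to 0.28 (limma adjusted p = 0.888). On 1421656_at Spry2 differed by 0.10, at values of 5.39 to 5.57.

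Spry4 was lower by value in the truncated cells on its brighter probe sets. On 1445669_at the wild-type arrays were at 7.59, 7.20 and 7.17 and the truncated arrays at 6.09, 6.91 and 6.40. The groups did not overlap, and truncated replicate 2 lay nearest to the wild type. The difference was −0.86 (SE 0.22; limma adjusted p = 0.11, unadjusted p = 0.00637), and with array weights it passed (−0.94, adjusted p = 0.045). Over the 16 alternatives the adjusted p ran from 0.045 to 0.342.

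On 1440867_at Spry4 was at 7.68, 7.39 and 7.32 against 6.92, 7.21 and 6.58, again without overlap, a difference of −0.56 (limma adjusted p = 0.188). In the 4 arrays rich in fibroblast transcripts these 2 probe sets differed by −1.15 and −0.78, and in the other pair by −0.26 and −0.11. The dimmer probe sets 1422020_at and 1422021_at differed by −0.05 and −0.06, at values of 4.48 to 5.47, and their groups overlapped.

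The ETS factors did not pass either. Etv5 was highest on 1428142_at, at 10.46, 10.55 and 10.06 in wild-type and 10.46, 10.40 and 10.49 in truncated cells. Wild-type replicate 3 was the low array, and the groups overlapped. The difference was 0.09 with a 95% interval of −0.24 to 0.42 (limma adjusted p = 0.849).

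On 1420998_at Etv5 was at 8.32, 8.12 and 7.55 in wild-type and 8.72, 8.46 and 8.51 in truncated cells. Here the truncated arrays were all higher, with a difference of 0.57 that did not pass (limma adjusted p = 0.24; 0.032 with the fibroblast mean as a covariate). On 1450082_s_at, drawn from the same source sequence as 1420998_at, the groups overlapped and the difference was 0.22 (limma adjusted p = 0.641).

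Etv4 was at 7.38, 7.33 and 6.82 in wild-type and 7.30, 7.36 and 7.11 in truncated cells on 1423232_at. The lowest array was again wild-type replicate 3, and the difference of 0.08 had a 95% interval of −0.32 to 0.47 (limma adjusted p = 0.899). Its other probe set, 1443381_at, lay below the median of all probe sets, at 4.26 to 4.56.

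**Figure D4:**
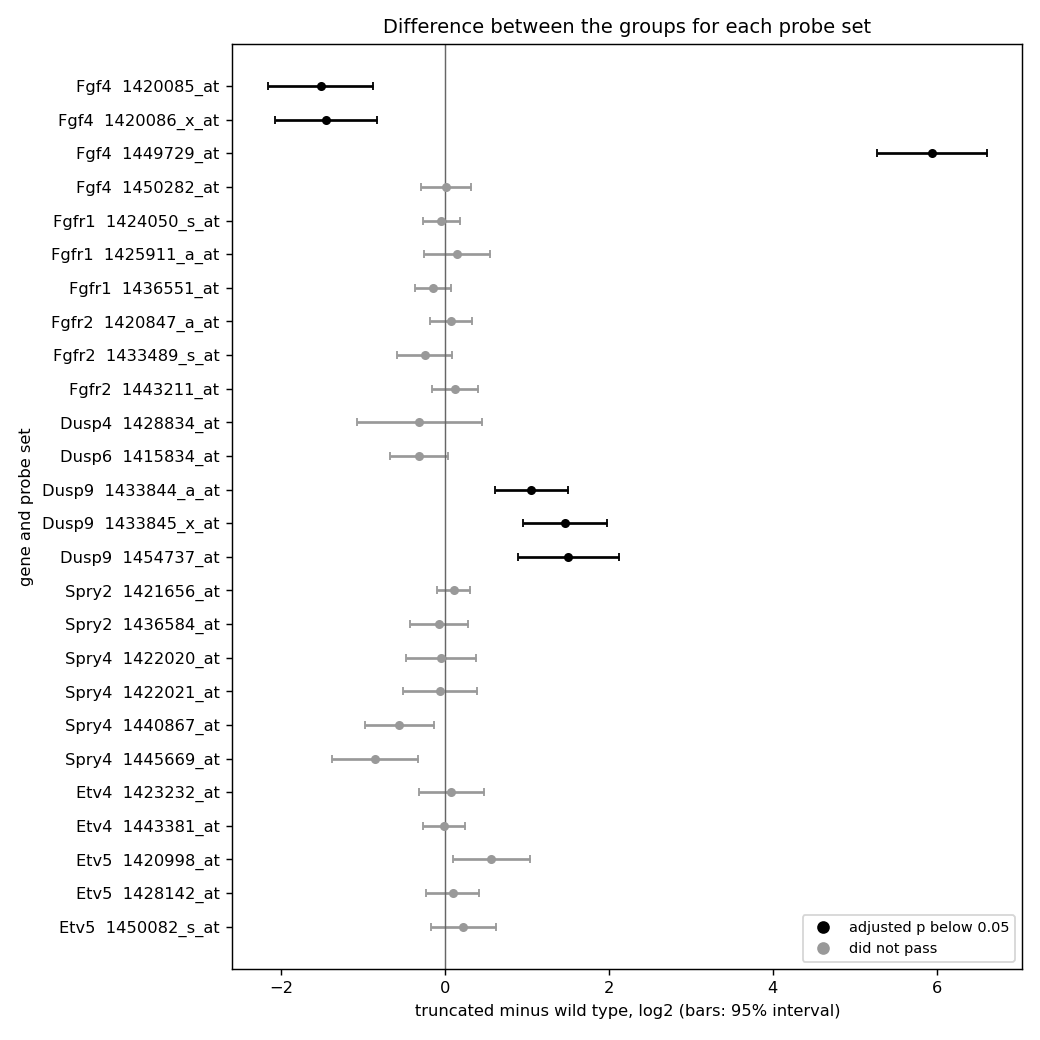
Difference between truncated and wild-type cells in log2 units (x axis) for each of the 26 probe sets (y axis), with 95% intervals from limma; black points passed at an adjusted p under 0.05 and grey ones did not. The 6 that passed are those of Dusp9 and 3 of Fgf4, those of Spry4 lie between −0.86 and −0.05, and those of Etv5 between 0.09 and 0.57.

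Wild-type replicate 3 differed from the mean of wild-type replicates 1 and 2 in both directions. Of the 22 receptor and feedback probe sets, 11 were lower there, and the share over all probe sets was not computed. On this array the 3 Etv5 probe sets were 0.44 to 0.67 below that mean, Dusp4 0.70 below, the brighter Etv4 probe set 0.54 below and Dusp6 0.39 below. The Dusp9 probe sets were 0.17 to 0.51 above it, 1436584_at of Spry2 0.33 above, and 1443211_at and 1433489_s_at of Fgfr2 0.34 and 0.30 above. In truncated replicate 2, against truncated replicates 1 and 3, Etv5 was 0.08 to 0.32 lower, and Dusp4, 1423232_at of Etv4 and Dusp6 were 0.16, 0.15 and 0.31 higher. The part of fibroblast RNA in these differences was not tested.

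The remaining pathway was followed in 80 other genes of FGF and ERK signalling, of which 70 were measured, each by its brightest probe set. In the truncated cells 3 rose, 4 fell and 63 did not pass (limma, adjusted over all genes), where 4.67% of all genes passed, 2.70% upward and 1.97% downward, and the median difference was −0.05 against 0.01 over all genes. The groups did not overlap for 21 of the 70, against 22.4% of all genes. By level, 63 of the 70 were above the median of all probe sets. With dim probe sets left out, 10 of the list passed, where 7.27% of the remaining genes did. The list without wild-type replicate 1, 2 or truncated replicate 1, 2 or 3 had 3, 0, 0, 4 and 1 calls, in fits where 2.80%, 1.32%, 0.709%, 2.76% and 0.951% of all genes passed (18 at an unadjusted p under 0.05 with all arrays, 17 without wild-type replicate 2 and 15 without truncated replicate 1, by limma). With p-values adjusted over all probe sets, as for the members, 3 of the 7 passed, Fgf15, Hs2st1 and Egr1, while Ndst2, Araf, Fos and Klb missed the threshold (limma adjusted p = 0.0546, 0.0534, 0.0562 and 0.0631).

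Among 9 other ligands 1 changed. Fgf15, an FGF gene of the early embryo, was at 6.55, 7.11 and 7.12 in wild-type and 5.73, 5.41 and 5.89 in truncated cells. The groups lay apart, and it fell by 1.25 (SE 0.20; limma adjusted p = 0.0196).

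Of 13 receptor, co-receptor and heparan sulphate genes, 2 rose and 1 fell. Klb, the co-receptor for endocrine FGFs, rose from 4.58 ± 0.25 to 6.01 ± 0.62 (limma adjusted p = 0.0495), from a level below the median of all probe sets. The dimmer Klb probe set differed by 0.14 with overlap and missed the threshold (limma p adjusted over all probe sets = 0.81). Hs2st1, a sulphotransferase of the heparan sulphate that FGFs bind, rose by 0.66 (adjusted p = 0.035), while its dimmer probe sets, with differences of −0.61, −0.05 and −0.07, missed the threshold. Ndst2, another enzyme of heparan sulphate, fell by 0.55 (adjusted p = 0.0451).

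Of 14 adaptors and kinases 1 changed. Araf, an X-linked RAF kinase, was at 6.90, 7.05 and 6.44 in wild-type and 7.63, 7.53 and 7.86 in truncated cells and rose by 0.88 (limma adjusted p = 0.0428). The dimmer Araf probe sets, with differences of 0.47, 0.41, 0.08 and −0.31, missed the threshold. Of the 18 other inhibitors, among them Spry1, Spred1, Spred2, Dusp5 and Dusp7, 0 passed (limma; 2 at an unadjusted p under 0.05).

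Of 16 targets and nuclear factors 2 fell. Egr1, an immediate early target of ERK, was at 10.45, 10.22 and 10.00 in wild-type and 8.53, 8.93 and 8.16 in truncated cells and fell by 1.68 (limma adjusted p = 0.00966). Fos, which answers to ERK and to other signals, was at 8.43, 8.71 and 8.21 against 6.69, 7.67 and 6.52 and fell by 1.49 (adjusted p = 0.0449). Truncated replicate 2 was the nearest to the wild type for both genes. The fall of Egr1 held its call in 14 of 16 alternatives, and was lost without wild-type replicate 2 (adjusted p = 0.0564) and without truncated replicate 1 (0.0721). That of Fos held in 12 of 16, and was lost without wild-type replicate 1 or 2 or truncated replicate 1 or 3 (limma adjusted p = 0.104 to 0.191, with differences of −1.50 to −1.27).

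**Figure D5:**
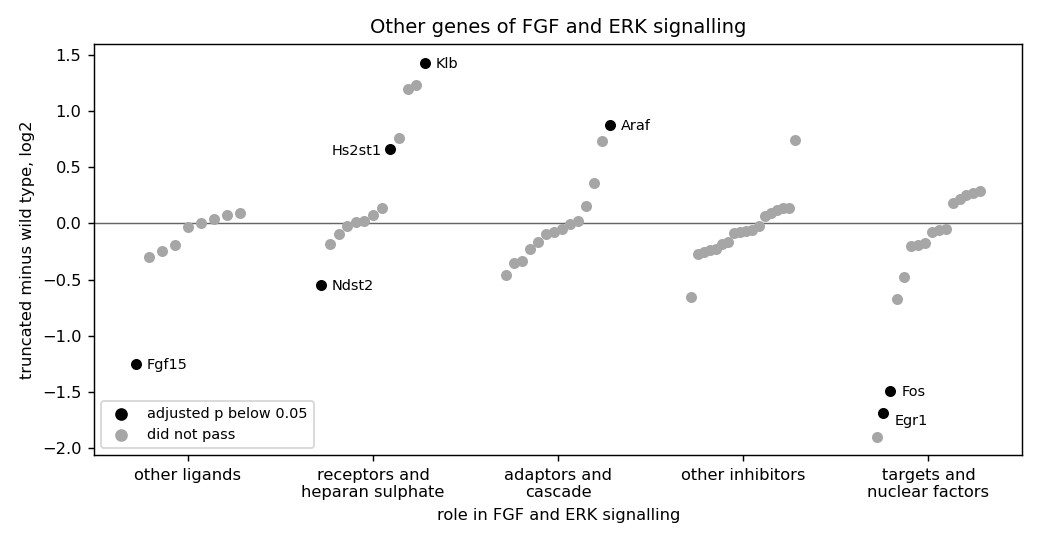
Difference between truncated and wild-type cells in log2 units (y axis) for 70 other genes of FGF and ERK signalling, 1 point each, grouped by role (x axis); black points passed at an adjusted p under 0.05 and are named. Fgf15, Ndst2, Fos and Egr1 fell, Klb, Hs2st1 and Araf rose, and none of the 18 other inhibitors passed.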

How the data were processed

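The authors deposited log2 expression values per probe set; their log2 scale was inferred from the range of values (array medians 4.80 to 4.86, maxima 13.7 to 13.8), and the summarising and normalising methods are not given in the sources used here. Of 45101 rows, 64 control probe sets were left out of the tests. Of the rest, 34945 had 1 platform gene symbol, 932 several (none used) and 9160 were unnamed. Members were matched by symbol, not synonym, and all 26 matched the RefSeq table of GRCm38.p6 by Entrez identifier. On 30.9% of probe sets at least 2 arrays shared an identical value.

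Groups were compared with lmFit and eBayes of limma 3.58.1 (R 4.3.3), group as the only term, adjusted by Benjamini-Hochberg over all probe sets or, with the brightest probe set a gene, over all genes; tests were two-sided at 0.05. Intervals are limma's, and 3 arrays a group limit the precision. No filter on low values was used. Members, lists and alternatives were chosen with earlier results of these data known. Named were all member probe sets, up to 4 passing genes a role and the 3 most similar probe sets. Replicate numbers were not used to pair the arrays in the main fit. Tested on simulated arrays of 45037 probe sets, the fit found 59 of 100 true changes of 1 log2 unit and 91 of 100 of 2 units. It also called 6 unchanged probe sets. The simulated noise was independent between probe sets, without the shared fibroblast and spike-in differences, and fewer changes were planted than were called here. These rates therefore do not give the sensitivity of the fit on the real arrays. Alternatives were a replicate block, median centring, quantile normalisation, fits without dim or cross-hybridising probe sets, a trended robust variance, array weights, a spike-in block, the 4 low spike-in arrays, the fibroblast mean as a covariate, each array left out, and 1 or the mean of all probe sets a gene. Plots used matplotlib 3.10.9.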

Additional observations from a re-analysis of the deposited data

How the results depend on the processing

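Of the 26 member probe sets 6 passed with limma. The count was 3 with the replicate number as a block, 1 in the 4 low spike-in arrays alone, and 2 with 1 probe set a gene, where fewer features were tested; it ranged from 1 to 6 with each array left out. Of all probe sets 2.80% passed, 1.62% with the replicate block, 2.53% in the 4 arrays and 0.331% to 3.71% with an array left out. Of the 70 other pathway genes 7 passed, 4 with the replicate block, 13 with array weights, 14 with the spike-in block, 13 with the fibroblast covariate, and from 0 to 10 with each array left out (0 without wild-type replicate 2 or truncated replicate 1, with 17 and 15 at an unadjusted p under 0.05). Of all genes 4.67% passed, 2.56%, 8.65%, 8.62% and 10.7% in those first 4 fits, and 0.709% to 6.55% with an array left out. Other alternatives stayed within 1.5 times. Of 584 values of 37 named probe sets and genes, 62 lost and 7 gained a call, 0 called values changed direction, and 25 values changed sign without a call. Same-numbered arrays of the groups correlated at 0.328, −0.368 and −0.12 in their deviations from the group means. Differently numbered arrays correlated at −0.443 to 0.389. Deviations from a mean of 3 arrays depend on each other, so these values cannot decide whether the numbers pair arrays. The cause of these changes was not tested.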

Other observations

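Several pathway genes that missed the threshold, chosen here after their values were seen, had groups that did not overlap. Bhlhe40, a circadian and hypoxia-responsive repressor, differed by −1.90 (limma adjusted p = 0.0565). Il17rd, the FGF inhibitor also called Sef, differed by −0.65 (adjusted p = 0.0521), and the heparan sulphate sulphotransferase Hs6st1 by 0.76 (0.0541). The X-linked glypican Gpc4 differed by 1.20 (adjusted p = 0.0985) and the adaptor Grb2 by 0.73 (0.0982).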
